A study of Danio rerio with 12 samples.

Results

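The regions described here are open chromatin regions shared by the GFP-negative fractions of sorted zebrafish embryo cells and called in neither GFP-positive fraction. They are peaks of the double negative list on chromosomes 1 to 25 that overlap a peak of the mCherry only list by 1 bp or more, and no peak of the double positive or GFP only list. There were 13123 such GFP-negative regions among 166282 double negative peaks (7.89%, Wilson 95% interval 7.76 to 8.02, counting error only). Seen from the mCherry only list, 13575 of 134260 peaks (10.1%, 9.95 to 10.3) met the mirror rule of a double negative partner and no GFP-positive one. The GFP-positive lists were of unlike length, with 90687 peaks in double positive and 138364 in GFP only on these chromosomes. With all lists at an equal length of 90687 peaks, 4444 regions (4.90%) were left. Absence from a list means only that no peak was called there.

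All cells came from wild-type embryos at 72 hours post fertilisation that carried both the kdrl:mCherry and the sele:GFP transgene and received no treatment. Whole embryos were homogenised, and 4 fractions were collected by flow cytometry, each with 3 samples: double positive (kdrl:mCherry+, sele:GFP+), mCherry only (kdrl:mCherry+, sele:GFP-), GFP only (kdrl:mCherry-, sele:GFP+) and double negative (kdrl:mCherry-, sele:GFP-). Open DNA was tagged with Tn5 transposase in 12000 to 50000 cells of a fraction (ATAC-seq). How many embryos were pooled for a sample is not given in the sources used here. The labels name 1 peak list for all 3 samples of a fraction, so no value has a replicate check, no difference was tested, and all intervals cover counting error only.

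ATAC-seq finds stretches of DNA that are free of nucleosomes, such as promoters and enhancers, because Tn5 inserts its adaptors there. The kdrl reporter marks the endothelium that lines blood vessels, where the kdrl product receives the growth signal VEGF. The product of sele, E-selectin, is a surface protein by which activated endothelium catches circulating white blood cells. The GFP-negative fractions are therefore unlike in make-up: mCherry only cells are endothelium by their reporter, while the double negative gate takes every other cell without either reporter, a mixture of many tissues. In such sorted bulk material, a larger share of cells with an open region and a more open region in each cell cannot be told apart. The fractions were not checked against marker genes, since no danRer7 gene annotation was used, and the place of the regions relative to genes, exons, introns and UTRs was not analysed here.

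Most GFP-negative regions were low. Height is the summit read count over the lowest expected background of its list, which was 4.47 reads for double negative and 4.46 for mCherry only. Median height in the double negative list was 5.38 (quartiles 4.26 and 7.84), or 24 reads, and the range of reads was 12 to 134. For the mCherry only partners, the highest overlapping peak of each region, median height was 4.26 (3.59 and 5.38), or 19 reads, with a range of 11 to 155 reads. Among all peaks, median height was 5.82 in double negative and 6.28 in mCherry only. The regions thus lay a little below the middle of the first list and further below the middle of the second.

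In the double negative list the regions were taller than the other classes whose only partner was 1 list or none. Peaks called in double negative alone had a median height of 4.48, and those whose only partner was the GFP only list had 4.93. Those in all 4 lists had 9.85. Height 10 was reached by 1654 GFP-negative regions (12.6%), by 794 of 14638 peaks shared with GFP only (5.42%) and by 1848 of 51181 peaks of double negative alone (3.61%). Over the whole double negative list 36391 peaks (21.9%) did. Seen from the mCherry only list the order was different: 268 of 13575 peaks (1.97%) reached height 10, against 408 of 17185 peaks of mCherry only alone (2.37%) and 1882 of 8779 peaks whose only partner was double positive (21.4%). Over the whole mCherry only list the share was 27.3%. These classes are defined by the same calls, so their heights are a description.

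Height in one GFP-negative fraction followed height in the other only weakly. Spearman's rho between the heights over the 13123 regions was 0.15, against 0.70 over the 55667 peaks of all 4 lists. It was also low in the classes missing from a single GFP-positive list, at 0.25 for peaks missing only from double positive and 0.18 for those missing only from GFP only. These values are across regions of the same pair of libraries, and regions are not replicates. The GFP-negative regions also cover a narrower span of height. Quartiles of mCherry only height were 3.59 and 5.38, against 7.18 and 17.0 in peaks of all 4 lists. A narrower span can lower rho, so the values of these classes are not on equal terms. From a double negative height of 4 to 5 up to 10 to 15, the median height of the mCherry only partner stayed between 4.26 and 4.49. In peaks of all 4 lists it went from 6.28 to 12.3 over the same bins. In the other direction, regions whose mCherry only height was 4 to 5 had a median double negative height of 5.38, and those at 10 to 15 had 7.28.

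**Figure D1:**
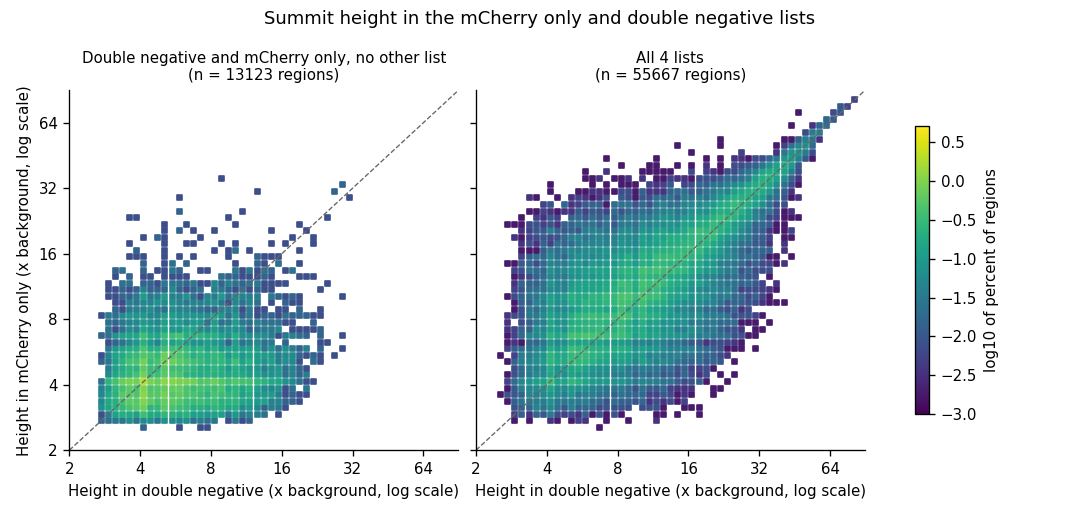
Height in the mCherry only list against height in the double negative list, both as summit reads relative to list background, on log scales. Colour gives the log10 percent of regions, and the dashed line marks equal height. The 13123 GFP-negative regions (left) form a flat band at low mCherry only height (median 4.26), while the 55667 double negative peaks of all 4 lists (right) follow the line (rho 0.70 against 0.15). The regions on the left cover a narrower span of height, which can lower rho.

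The mCherry only height was in the median 0.811 of the double negative height (quartiles 0.565 and 1.07). Over all 96237 double negative peaks with an mCherry only partner the median was close to equality, and over peaks of all 4 lists it was 1.07. The mCherry only side was higher in 4309 GFP-negative regions (32.8%; background over all with a partner 51.1%). It was at least 2 times as high in 321 (2.45%; background 6.67%) and at most 0.5 times as high in 2411 (18.4%; background 9.15%). Peaks missing only from double positive were similar, with a median ratio of 0.842. The mCherry only side was higher in 36.6% of them and at most 0.5 times as high in 17.0%. Peaks missing only from GFP only had 1.06, 57.0% and 7.17%. The calls in these lists chose the peaks of each class, so these shares describe the classes and test nothing. The direction also rested on which height selected the regions. Selected on a double negative height of 10 or more, the median ratio was 0.371 over 1654 regions. Selected on an mCherry only height of 10 or more, it was 1.63 over 360 regions. With a geometric mean of both heights of 10 or more it was 0.776 over 294 regions (quartiles 0.458 and 1.11).

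Up to moderate height, a steady share of the double negative list fell into this class. It was 8.52% of peaks below height 4, between 8.59% and 9.31% in the bins from 4 to 10, and 6.91% from 10 to 15. It then fell to 3.29% from 15 to 20 and to 0.600% at 20 or more, where 54 of 8998 peaks were members. Peaks of double negative alone behaved differently and declined from the start, from 55.0% below height 4 to 17.2% at 8 to 10. The share with GFP only as the sole partner started higher, at 12.6%, and was 6.89% at 8 to 10. From height 8 upwards the GFP-negative regions outnumbered those shared with GFP only: 1438 against 1149 at 8 to 10, 1334 against 699 at 10 to 15, and 266 against 82 at 15 to 20. In the mCherry only list the share fell throughout, from 23.3% of peaks below height 4 to 1.34% at 10 to 15 and 0.0802% at 20 or more.

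**Figure D2:**
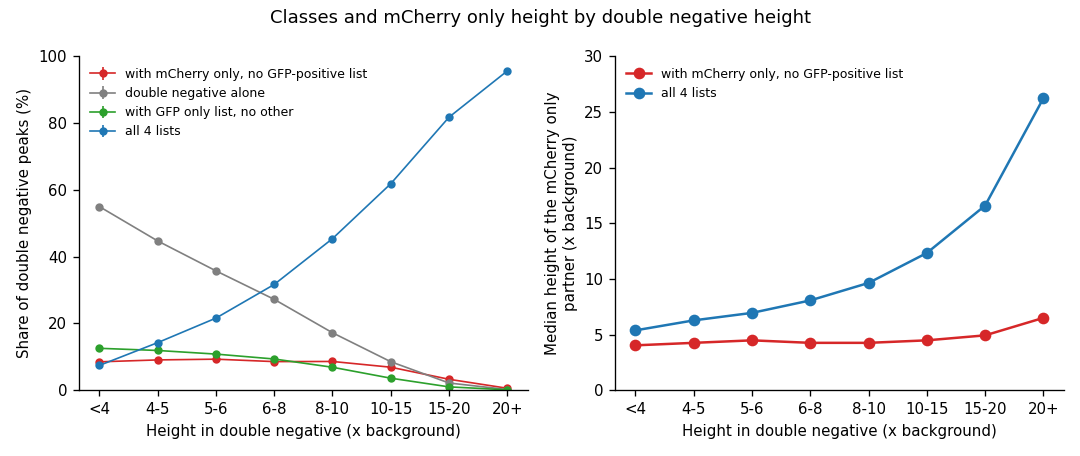
Left, the share of double negative peaks in each class by height in that list (percent, bars are Wilson 95% intervals). The GFP-negative class stays near 9% up to height 10, while peaks of double negative alone fall and peaks of all 4 lists rise. Right, the median height of the mCherry only partner over the same bins, which stays between 4.04 and 4.93 in GFP-negative regions up to height 20 and rises from 5.38 to 16.6 in peaks of all 4 lists.

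Whether summits of this size would reach the lowest −log10 p of a GFP-positive list was computed from the recovered values, rounding down to whole reads. A summit of the same height over the same local background would have reached the lowest −log10 p of the double positive list (2.78) in 13056 of 13123 regions by their double negative height (99.5%). For the GFP only list, with a lowest −log10 p of 2.63, all 13123 would have done so. By the lower of the double negative and mCherry only heights, 11953 regions (91.1%) would have reached the lowest value of both GFP-positive lists. At 0.5 times that lower height, 470 (3.58%) would have. The regions had already been called at a similar lowest −log10 q, so the high shares at full height follow largely from that. The double negative local background stood in for that of the GFP-positive lists. These shares therefore do not tell whether a peak was missed there. Reads at these positions in the GFP-positive fractions were not analysed here, so the heights there are not known.

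Over all heights, the regions were narrower than peaks of all 4 lists, and they were wider on the double negative side. Median width was 362 bp in double negative (quartiles 264 and 498, range 200 to 2096), against 303 bp for peaks of double negative alone, 335 bp for those shared with GFP only and 503 bp for those of all 4 lists. Together they covered 5.33 of the 73.1 Mb in the list. Width followed height: it was 253 bp below height 4, 422 bp at 6 to 8 and 533 bp at 10 to 15. Within a bin of height the GFP-negative regions were a little wider than peaks of double negative alone, at 422 against 392 bp at 6 to 8 and 533 against 472 bp at 10 to 15. Peaks shared with GFP only were similar, at 415 and 523 bp in these bins. Against peaks of all 4 lists the gap was smaller within bins up to height 20. Widths were 253 against 277 bp below height 4 and 422 bp in both classes at 6 to 8. They were 533 against 550 bp at 10 to 15, and 581.5 against 652 bp at 15 to 20. The partner in mCherry only had a median width of 283 bp, and the double negative peak was the wider one in 8690 regions (66.2%). That share was 65.1% in peaks missing only from double positive, 48.4% in peaks of all 4 lists and 54.3% in all double negative peaks with a partner.

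The pairs overlap by the rule, and they lay less closely on each other than pairs of all 4 lists. The regions had a single mCherry only partner in 12996 cases, and 127 had 2 or 3. Overlap covered at least 50% of both peaks in 9455 regions (72.0%), against 90.4% of peaks of all 4 lists. The summits lay a median of 53 bp apart, and within 50 bp in 6342 regions (48.3%), against 22 bp and 70.3% in all 4 lists. Peaks missing only from double positive had 79.7% with such overlap and 54.2% with summits within 50 bp. Those missing only from GFP only had 78.7% and 52.4%. In 361 regions (2.75%, 2.48 to 3.04) an mCherry only partner itself overlapped a GFP-positive peak that the double negative peak did not reach. Those partners were wide, with a median of 647 bp against 280 bp in the other 12762 regions.

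The border of the rule fell among low and narrow peaks. The 166 regions that met mCherry only by 50 bp or less had a median height of 3.92 and a median width of 263 bp. Just outside, 129 double negative peaks had an mCherry only peak up to 50 bp away, with 4.03 and 284 bp. On the GFP-positive side, 122 regions had such a peak up to 50 bp away (4.48 and 266 bp). Another 168 were kept out by an overlap of 50 bp or less (4.26 and 275 bp).

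The regions that were tall in both fractions mostly stood on a raised local background. The local background of a peak is its expected number of reads relative to the lowest of the list. It was 3 or more in 230 of the 13123 regions (1.75%), against 3.52% of all double negative peaks. It was 1.14% in peaks of double negative alone, 1.70% in those missing only from double positive and 7.64% in those of all 4 lists. Among the 116 regions with a height of 10 or more in both lists, 93 (80.2%, 72.0 to 86.4) had such a background. Among peaks of all 4 lists with both heights of 10 or more, 17.9% did. These 93 regions were narrow, with a median width of 262 bp, and their median fold over local background was 2.63. The other 23 had a median width of 484 bp and a median fold of 6.05. Of the 93, 61 lay within 1 kb of a GFP-positive peak, as did 13 of the 23.

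The 10 regions with the highest geometric mean of the heights show this kind. All were on a local background of 3.70 or more. The leading one spanned chromosome 5 from 43715065 to 43715604. It had 129 reads in double negative (exact Poisson 95% interval 108 to 153) and 144 in mCherry only (121 to 170). Its background was 16.9 times that of the list, and its fold was 1.70 in double negative and 1.59 in mCherry only. GFP-positive peaks lay 335 bp (GFP only) and 348 bp (double positive) away. On chromosome 3 the region from 56209047 to 56209278 had 134 and 133 reads on a background of 12.1. A pair on chromosome 14, from 48567535 to 48567812 and from 48567934 to 48568154, had 99 and 94 reads in double negative and 87 and 88 in mCherry only. The intervals of the counts overlapped in 9 of the 10 regions, which were picked for height in both lists. The share with overlapping intervals over all regions is not given here, so this count describes the 10 only. The exception among them was chromosome 15 from 28035296 to 28035827, with 55 reads in double negative (41.4 to 71.6) and 140 in mCherry only (118 to 165). Its partner itself overlapped a GFP-positive peak. All of the 10 lay within 2022 bp of a GFP-positive peak, and 7 within 1 kb.

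Ranked by fold over local background instead, a ranking chosen after the values were seen, other regions led. Of the 5 with the highest fold in the weaker of the lists, the first lay on chromosome 14 from 1538092 to 1538546. It had 57 reads and a fold of 8.71 in double negative, 51 reads and a fold of 9.49 in mCherry only, and a background of 1.27. The nearest GFP only peak was 3937 bp away and the nearest double positive peak 19108 bp. The second, on chromosome 21 from 20935769 to 20936544, had 70 reads in double negative (54.6 to 88.4) and 64 in mCherry only (49.3 to 81.7). A GFP only peak lay 551 bp from it. The third, on chromosome 11 from 43103443 to 43103796, had 80 reads (63.4 to 99.6) and 44 reads (32.0 to 59.1). A GFP only peak lay 578 bp from the third and 5732 bp from the fourth. On chromosome 10 from 6970999 to 6971575, the fifth had 75 reads (59.0 to 94.0) and 40 reads (28.6 to 54.5), and its nearest GFP-positive peak was 19621 bp away. The region with that gap of 5732 bp, on chromosome 20 from 42241177 to 42241667, had 52 reads (38.8 to 68.2) and 42 reads (30.3 to 56.8). The mCherry only count was the lower one in each of these regions. The intervals of the fractions overlapped on chromosomes 14, 20 and 21 and did not on chromosomes 10 and 11. They cover counting error only, and no difference between the fractions was tested. The share with overlapping intervals over all regions is not given here, so this describes the 5 only.

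The regions were spread over all 25 chromosomes, from 325 on chromosome 25 to 812 on chromosome 7. Per peak of the double negative list the spread was narrow. The share ran from 6.16% on chromosome 4 (441 of 7160 peaks, 5.63 to 6.74) to 8.57% on chromosome 7 (812 of 9473, 8.02 to 9.15), with a median of 7.96%. The interval excluded the share of the whole list on 3 chromosomes, below it on chromosome 4 and above it on chromosomes 7 and 18 (8.55%, 7.90 to 9.24). Chromosome 4 also had the lowest share seen from the mCherry only list (8.13%) and the lowest median height (4.93). It had the highest share of peaks whose only partner was GFP only (10.7%). Along chromosome 4 the share was 6.81% up to 25 Mb (6.08 to 7.64) and 5.32% beyond it (4.59 to 6.16). Near and far from chromosome ends the shares had overlapping intervals, at 7.70% within 1 Mb of an end (7.12 to 8.32), 7.92% from 1 to 5 Mb (7.59 to 8.26), and 7.90% further in (7.75 to 8.04).

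**Figure D3:**
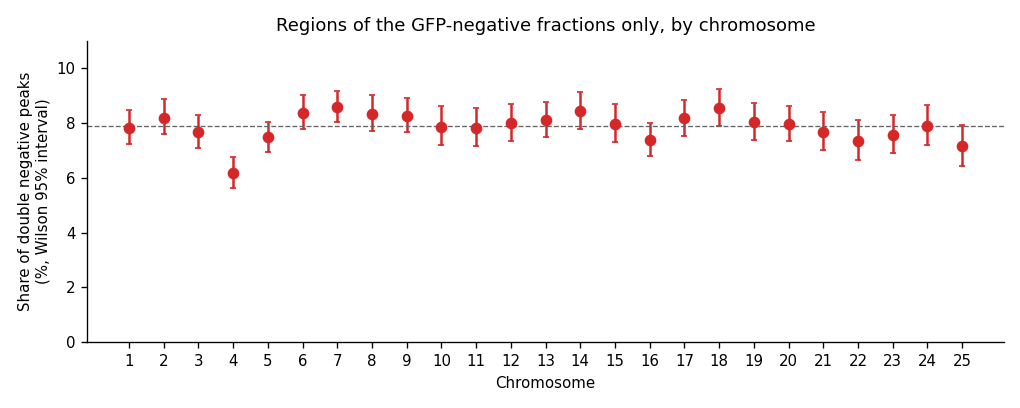
Share of the double negative peaks of each chromosome that are GFP-negative regions (percent, points with Wilson 95% intervals), with the share of the whole list, 7.89%, as a dashed line. Chromosome 4 is lowest at 6.16%, and the other chromosomes lie between 7.15% and 8.57%.

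In 275 windows of 5 Mb with at least 200 double negative peaks, the share ran from 3.92% to 12.2% (median 7.74%, quartiles 7.04 and 8.70). The highest windows lay on chromosome 9 from 45 to 50 Mb (81 of 666 peaks, 9.89 to 14.9), chromosome 17 from 15 to 20 Mb (85 of 713, 11.9%) and chromosome 11 from 40 to 45 Mb (79 of 681, 11.6%). The lowest lay on chromosome 4 from 55 to 60 Mb (16 of 408, 2.43 to 6.27), chromosome 13 from 20 to 25 Mb (27 of 600, 4.50%) and chromosome 4 from 25 to 30 Mb (21 of 440, 4.77%). The interval lay above the share of the list in 16 windows and below it in 12, of which 6 were on chromosome 4.

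Few of the regions lay close together. The nearest other GFP-negative region lay a median of 29.1 kb away, and 2860 (21.8%) had one within 10 kb. The class shared with GFP only, of similar size, had 26.9 kb and 22.9%. Next along the double negative list, 9.29% of the neighbours of a GFP-negative region were of its own class, 1.18 times the share of the class in the list. Of these neighbours, 33.6% were peaks of double negative alone (1.09 times their share in the list) and 27.7% were peaks of all 4 lists (0.827 times). For peaks shared with GFP only the neighbours of their own class were 1.19 times their share.

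Chained over gaps of at most 20 kb, 289 regions formed 54 runs of 5 or more on 20 chromosomes, 8 of them on chromosome 7. The class shared with GFP only formed 56 runs. The runs were 17.0 to 69.0 kb long and held 598 double negative peaks, 483 mCherry only peaks, 215 GFP only peaks and 101 double positive peaks. No double positive peak lay in 15 of the 54, no GFP only peak in 1, and neither in 1. The rule itself brings the regions and their mCherry only partners into these counts and keeps GFP-positive peaks off the regions. The lists are also of unlike length, and the counts are not set beside those of other stretches. Peak counts of runs, here and for the single runs below, are therefore a description only. In runs the median ratio of mCherry only to double negative height was 0.718, against 0.811 outside them. Median double negative height was 6.27 in runs and 5.38 outside, while median mCherry only height was 4.26 in both. In the whole class the ratio also fell with double negative height, from 0.801 at 5 to 6 to 0.637 at 6 to 8. With gaps of at most 10 kb, 3 runs were left, and with lists of equal length 3.

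The run with the most regions held 8, on chromosome 22 from 18471252 to 18535301. In the order of their positions, the double negative reads were 70, 35, 39, 32, 43, 36, 64 and 66. The mCherry only reads were 17, 17, 16, 13, 21, 37, 22 and 21. The double negative count was higher in 7 of the 8, and the sixth had nearly equal counts. The double negative list held 23 peaks over this stretch, 7 of them its own alone and 2 shared by all lists, against 17 in mCherry only, 7 in GFP only and 5 in double positive.

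The second run, with 7 regions on chromosome 4 from 16222014 to 16279245, was more even. Its double negative reads were 41, 33, 57, 20, 25, 26 and 20, and its mCherry only reads were 14, 38, 18, 20, 21, 17 and 19. The third region is 1240 bp wide in double negative, the widest of the run. The run of 6 regions on chromosome 20 from 38939971 to 39008925 had 60, 83, 32, 41, 55 and 66 reads in double negative and 13, 19, 16, 17, 17 and 23 in mCherry only. It is 1 of 14 runs of 6 regions and was taken among them for its highest sum of double negative reads. That choice favours high double negative counts, and how far the counts rest on it was not tested. The double negative list held 16 peaks against 9 in mCherry only, 3 in GFP only and 2 in double positive. Over these 3 runs, the mCherry only counts lay between 13 and 23 reads, apart from 37 in the first and 38 in the second, while the double negative counts ran from 20 to 83.

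**Figure D4:**
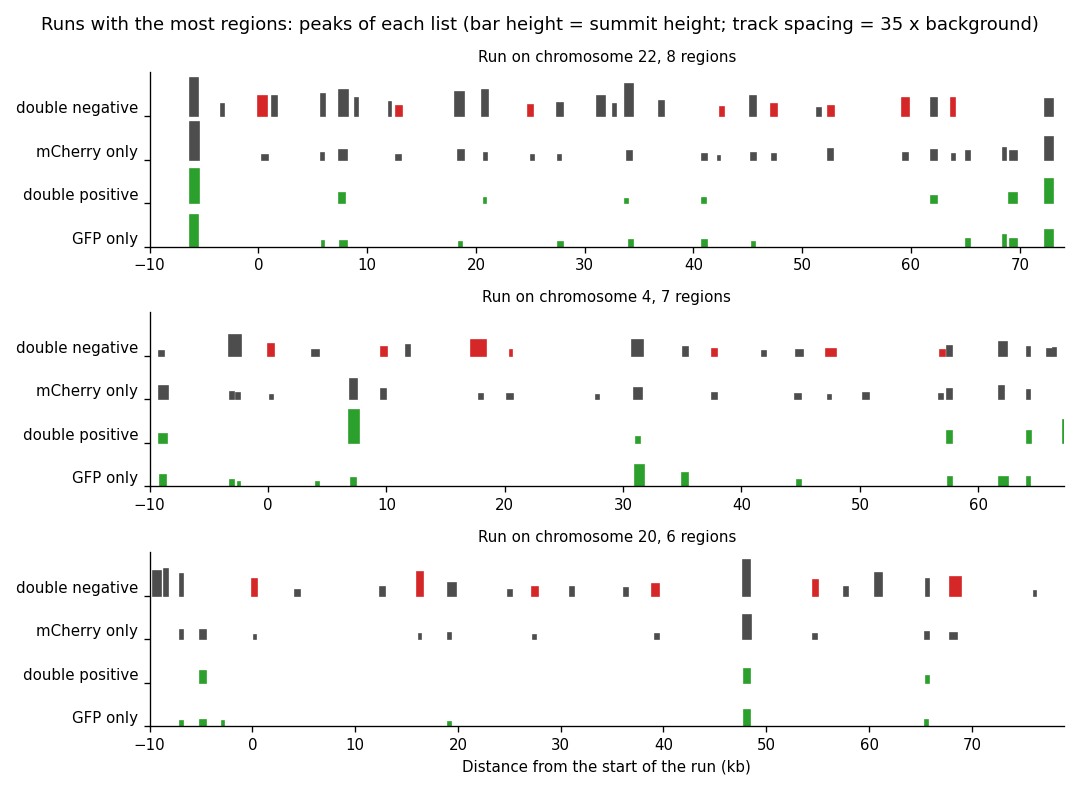
Peaks of each list over the runs of 8 and 7 regions and 1 of the 14 runs of 6, with distance from the start of the run in kb. Bar height is the height of the summit over the list background, GFP-negative regions are red, other double negative and mCherry only peaks are dark, and GFP-positive peaks are green. The 8, 7 and 6 red regions alternate with peaks of other classes, and the mCherry only bars under them are lower than most of the red bars.

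The nearest peak of either GFP-positive list lay a median of 3103 bp from the edge of a GFP-negative region (quartiles 1585 and 6077). The median was 1494.5 bp with reciprocal overlap of 50% as the rule of sharing, and 684 bp with a height of 10 or more in both lists. The reciprocal rule also admits regions that overlap a GFP-positive peak by less than it asks, and these have no gap to that peak. Its distance is therefore not on equal terms with the main one. As called, 11671 regions (88.9%, 88.4 to 89.5) had one within 10 kb. Within 1 kb there were 2244 (17.1%), within 100 bp 275, and beyond 50 kb 12. The nearest one belonged to the GFP only list in 9246 regions (70.5%), which is the longer of the GFP-positive lists, and in 71.0% of peaks of double negative alone. Median distance was 3617 bp to GFP only and 6334 bp to double positive.

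Peaks of double negative alone, which by definition also overlap no GFP-positive peak, lay somewhat further off, at a median of 3662 bp and with 84.6% within 10 kb. The order depended on height. Below height 6 the medians were 3295 bp for GFP-negative regions and 3982 bp for double negative alone, from 6 to 10 they were 3038 and 3046 bp, and at 10 or more they were 2663 bp (2559 to 2778) and 2361 bp (2262 to 2485). Regions on a local background of 3 or more lay at a median of 898 bp, with 128 of 230 within 1 kb, and the 116 with both heights of 10 or more at 684 bp, with 74 within 1 kb. Those in runs were at 3710 bp.

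**Figure D5:**
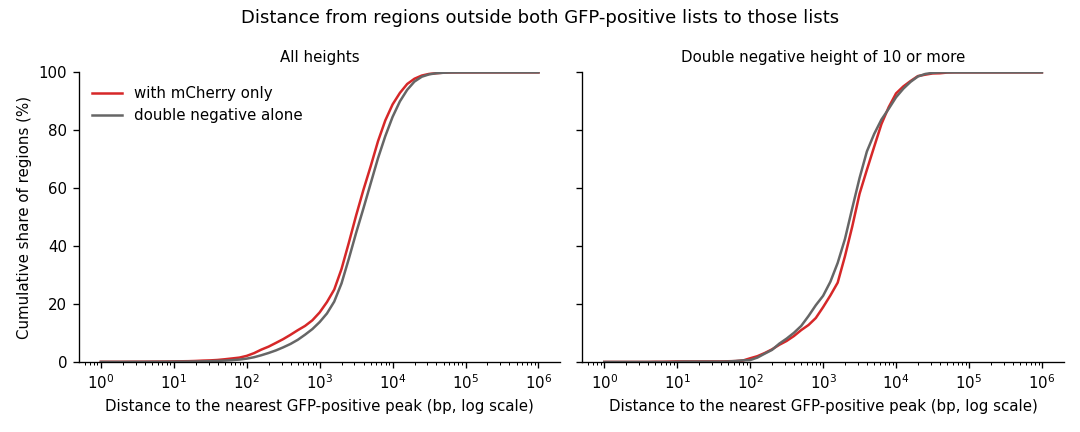
Cumulative share of regions (percent) by distance to the nearest GFP-positive peak in bp on a log scale, for GFP-negative regions (red) and peaks of double negative alone (grey). Over all heights the red curve lies to the left (medians 3103 and 3662 bp), and at a double negative height of 10 or more it lies mostly to the right (2663 and 2361 bp).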

How the data were processed

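The submitters' processing notes name the aligner Bowtie2 (2.2.1), the peak caller MACS2 (2.1.0) and the build danRer7. Not given in the sources used here are the caller's settings, read filters, Tn5 offsets and how samples were pooled. The lists the authors deposited give each peak a display score (not used), a summit position, its fold as a linear ratio of observed to expected reads, and −log10 values of p and q. These are the authors' own values per peak. Coordinates are printed 1-based.

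Reads and expected background at each summit were recovered as the whole number that gives both fold and −log10 p under a Poisson tail with a pseudocount of 1. The largest misfit of −log10 p was 0.000382 and the second-best number missed by at least 0.0113. This pileup model is inferred from the values. Recovery, overlap, distance and runs were tested on simulated data. For recovery these data were drawn under the same model, so that test checks the code and not the model. The lowest −log10 q was 1.30 to 1.35 in the lists. Scripts ran in Python 3.11.15 with numpy 2.4.6, scipy 1.17.1 and pandas 2.3.3.

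The class, comparison classes and alternatives were chosen with earlier results of these data known. Named are the 10 regions of highest geometric mean height, the 3 runs with the most regions (ties broken by summed double negative reads) and the 3 highest and lowest windows. Ends of chromosomes were taken from the outermost peaks. No danRer7 genome or annotation was used, so no gene or sequence is named.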

Additional observations from a re-analysis of the deposited data

How the results depend on the processing

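No paired analysis was possible because the 3 samples of a group share a single list, and no replicate could be left out for the same reason. A count is said to have moved when it changed by over 1.5 times, and any other value when it left its 95% counting interval. Over 9 settings the number of regions moved beyond that in 2, the share of the list in 9 and the median height in 5. Width and distance each moved in 7. The ratio of mCherry only to double negative height moved in 6 and stayed below 1 in all 9. No setting selected on mCherry only height alone, a selection that gave a ratio of 1.63. With reciprocal overlap of 50% the share of the list was 8.73%, the median height 5.82, the ratio 0.835, the width 383 bp and the distance to a GFP-positive peak 1494.5 bp. With summits within 200 bp the share was 8.43%, the width 378 bp and the distance 2480 bp. Both of these rules also admit regions that overlap a GFP-positive peak without meeting the rule, and these have no gap to that peak. With −log10 q of 5 or more in double negative the share was 7.62%, the height 6.49, the ratio 0.680, the width 417 bp and the runs 24. With that threshold in all lists these were 7.26%, 6.72, 0.841, 426 bp and 16, at a distance of 4143.5 bp. Lists of equal length (90687 peaks) left 4444 regions, a share of 4.90%, a height of 7.84, a ratio of 0.757, a width of 468 bp, 3 runs and a distance of 3911.5 bp. A height of 10 or more in both lists left 116 regions, 0.319% of the double negative peaks of that height, with a height of 12.9, a ratio of 0.961, a width of 291 bp, 0 runs and a distance of 684 bp. With mCherry only partners free of GFP-positive peaks the share was 7.67% and the distance 3236 bp. Without regions within 1000 bp of a GFP-positive peak the share was 6.54%, the ratio 0.787, the width 375 bp, the runs 34 and the distance 3892 bp. A gap of at most 10 kb left 3 runs. Without peaks on a local background of 3 or more, a setting chosen after seeing the data, the share was 8.04%. Stricter thresholds and shorter lists hold fewer peaks by construction, and causes of the remaining changes were not tested. The lowest number of reads called, 10 to 11 in the lists, limits what could be seen.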

Other observations

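Some regions were chosen for their extreme values and are given as values only. The GFP-negative region farthest from any GFP-positive peak was chromosome 15 from 11626486 to 11626782. It had 16 reads in double negative and 20 in mCherry only, and the nearest such peak was 137540 bp away. The next, chromosome 10 from 24070309 to 24070527, had 19 and 21 reads and lay 74179 bp from a GFP only peak. The widest region, on chromosome 21 from 40682232 to 40684327, spanned 2096 bp, with 51 and 21 reads. The highest ratio of mCherry only to double negative height was 6.32, on chromosome 4 from 21685587 to 21685786, with 16 and 101 reads. That partner overlapped a GFP-positive peak, as did those of the next highest ratios (6.19 and 5.01). Among regions of double negative height 10 or more the lowest ratio was 0.170. That region, chromosome 8 from 28814991 to 28816442, had 94 reads in double negative and 16 in mCherry only.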
